A study of Mus musculus with 6 samples.

Results

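This account concerns 10 genes of the circadian clock and its nearest regulators in the trunk of mouse embryos at embryonic day 9.5: Bhlhe40, Bhlhe41, Rora, Nr1d1, Nr1d2, Per1, Per2, Per3, Dbp and Clock. The family was chosen on measured values of this same contrast, because Bhlhe40 and Rora stood far higher on the Arid3b-null arrays, so the changes of the 10 genes are given as descriptions and carry no test. They are 10 of 20021 gene symbols with a probe on the array, and 10 of the 19792 genes that could be tested. A probe of each was found by its RefSeq accession, under older names for the 2 Bhlhe genes, which gave 12 probes in all.

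The study compared wild-type trunks with trunks of embryos null for Arid3b, which encodes a DNA-binding protein of the ARID family, with 3 arrays in each group. The dissected piece ran from the otic vesicle into the somite-bearing body and included the forelimb buds. RNA of 4 embryos was pooled for each array, so the 6 arrays hold RNA of 24 embryos and the spread within a group is a spread between pools. The labels give neither the strain nor the construction of the null allele, and they say nothing of litters or of the time of day of dissection. The p-values below measure the spread between these pools only.

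In the textbook clock, CLOCK pairs with BMAL1 (the product of Arntl) and activates genes through E-box sequences. Among the targets are the Per and Cry genes, whose products shut the pair down, and Nr1d1 and Nr1d2, whose REV-ERB proteins repress Arntl through elements that ROR proteins such as RORA activate. BHLHE40 and BHLHE41 bind E-boxes and act as repressors, and DBP, TEF and HLF activate D-box genes that NFIL3 represses. Bhlhe40 and Bhlhe41 are also known as genes induced by low oxygen through hypoxia-inducible factor, and cells of the early embryo are known for weak or absent circadian cycling.

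Start-site sequences of these genes were searched for the short elements named below. Some of those with a match are shown, to place the genes beside the values that follow. RefSeq windows of 300 bases (250 before the first transcribed base and 50 from it on, GRCm38.p6) were found for 8 of the 10 genes, all but Bhlhe40 and Per2. They were searched on both strands for CACGTG (the E-box), ACGTG (the core of the hypoxia response element, which every CACGTG contains), TTATGTAA (the D-box) and AGGTCA (the core bound by ROR and REV-ERB). Capitals mark the match, and each stretch is written 5′ to 3′ on the strand of the gene and ends at or before the last base ahead of the start. Bhlhe41 (chr6:145865421-145865670, minus strand) and Per1 (chr11:69098749-69098848, plus strand) are shown for their E-box.
Bhlhe41: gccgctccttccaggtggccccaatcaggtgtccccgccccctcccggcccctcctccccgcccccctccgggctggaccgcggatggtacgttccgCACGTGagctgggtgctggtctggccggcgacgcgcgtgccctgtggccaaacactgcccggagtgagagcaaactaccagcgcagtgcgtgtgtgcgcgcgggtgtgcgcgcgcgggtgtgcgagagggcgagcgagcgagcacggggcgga
Per1: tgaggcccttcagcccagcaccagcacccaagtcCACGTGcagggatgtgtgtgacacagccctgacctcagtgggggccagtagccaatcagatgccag

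Rora (chr9:68653536-68653785, plus strand), Nr1d1 (chr11:98775378-98775437, minus strand) and Dbp (chr7:45704997-45705056, plus strand) are shown for ACGTG without the full E-box. In Rora the match lies on the opposite strand and therefore reads CACGT.
Rora: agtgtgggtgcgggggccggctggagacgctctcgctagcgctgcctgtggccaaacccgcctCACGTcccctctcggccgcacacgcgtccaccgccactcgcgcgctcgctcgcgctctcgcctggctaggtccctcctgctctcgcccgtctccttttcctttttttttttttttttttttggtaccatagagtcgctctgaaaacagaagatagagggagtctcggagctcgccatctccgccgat
Nr1d1: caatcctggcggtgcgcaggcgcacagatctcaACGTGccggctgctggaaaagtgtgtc
Dbp: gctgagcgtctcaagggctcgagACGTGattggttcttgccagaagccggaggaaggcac

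Per3 (chr4:151044786-151044915, minus strand) is shown for its pair of D-boxes. Ciart (chr3:95882229-95882378, minus strand) and Tef (chr15:81802513-81802572, plus strand), clock genes outside the 10, are shown for E-boxes.
Per3: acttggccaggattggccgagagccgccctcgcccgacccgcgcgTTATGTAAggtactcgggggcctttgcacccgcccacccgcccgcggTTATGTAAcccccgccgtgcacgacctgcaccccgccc
Ciart: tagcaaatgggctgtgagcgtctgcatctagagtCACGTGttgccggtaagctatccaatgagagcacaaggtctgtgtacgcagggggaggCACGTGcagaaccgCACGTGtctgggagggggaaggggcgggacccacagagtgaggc
Tef: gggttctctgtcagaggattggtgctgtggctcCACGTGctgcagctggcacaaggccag

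Among the 8 genes with a window, CACGTG was found in 2 (Bhlhe41 and Per1), ACGTG in 5 (those 2 with Rora, Nr1d1 and Dbp), TTATGTAA in 1 (Per3) and AGGTCA in 3 (Nr1d2, Per1 and Clock). A further 8 clock genes, all with a window, were searched for the same letters. ACGTG was found in 5 of them (Cry1, Cry2, Ciart, Tef and Rorb) and CACGTG in 3 (Cry1, Ciart and Tef). TTATGTAA was found in 0 of them and AGGTCA in 2 (Arntl and Nfil3). Of the 5 with ACGTG, Ciart and Tef were called higher in the limma fit below, and Cry1, Cry2 and Rorb were not called. Of all 32851 RefSeq windows of this length, 7.15% held CACGTG, 19.6% ACGTG, 0.938% TTATGTAA and 16.3% AGGTCA. A gene can have several windows, so these shares and the counts of genes have different denominators. The matches describe letters only and say nothing of a factor at these sites.

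Levels below are log2 of the background-subtracted processed signal relative to the array's 75th percentile, so 0 is the level of a spot at that percentile, and a change is the Arid3b-null mean minus the wild-type mean with the standard error (SE) of the limma fit. Levels are compared between arrays for the same probe. The exceptions are the choice of a gene's brightest probe and the summed levels of marker lists, in which bright probes weigh most. The piece is a mixture of cell types, and fewer cells of a type and less RNA per cell cannot be told apart in any of these values.

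Of the 10 genes, 9 had a higher mean and 1, Clock, a lower mean in the Arid3b-null trunks. The limma fit called 8 of them higher, where 13.6% of all genes tested were called higher, and 0 lower, where 12.9% were (0 also at an unadjusted p under 0.05). Called in either direction were 26.5% of all genes. In 9 of the 10 genes wild-type and Arid3b-null arrays stood apart without overlap, against 46.2% of all genes, and 6 differed by at least 2-fold, against 7.35%. Nothing is read from these shares, since the contrast itself chose the family. The median change of the 10 was 1.27 on the log2 scale, that of the 8 other than Bhlhe40 and Rora was 0.86, and that of all genes was -0.04.

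**Figure D1:**
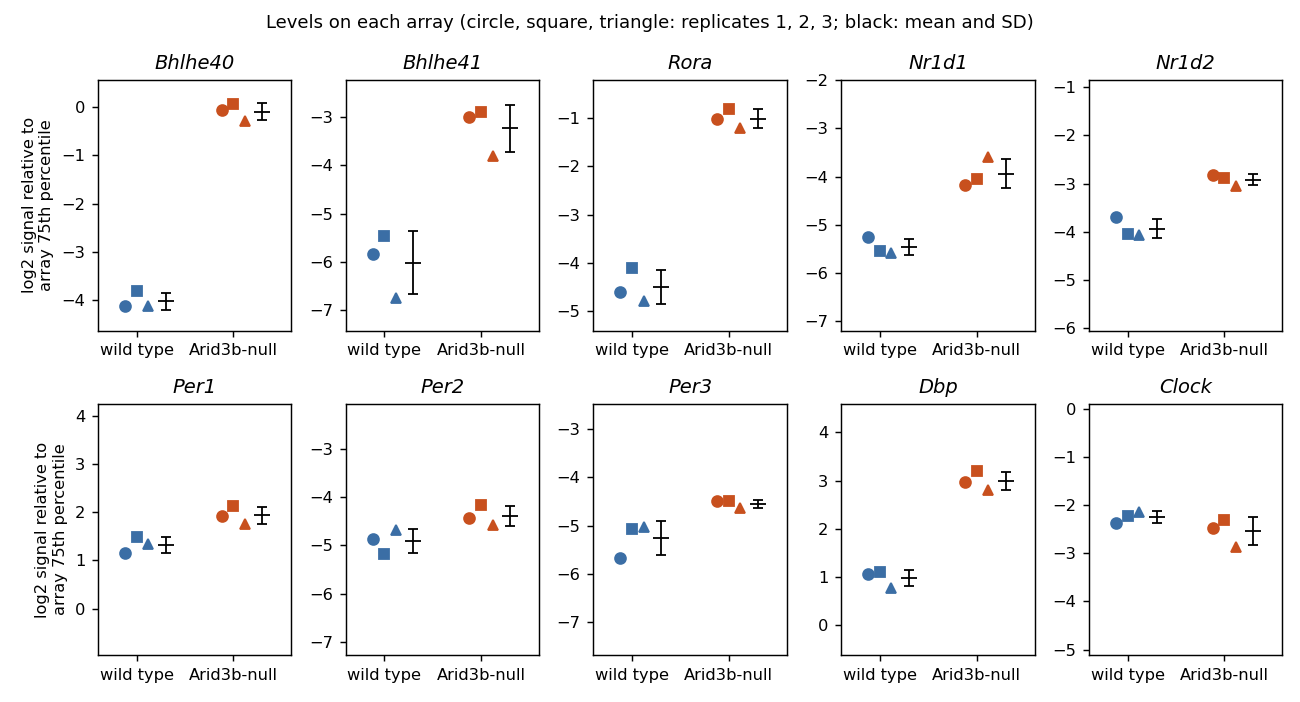
Level of each of the 10 genes on each array (vertical axis, log2 signal relative to the array's 75th percentile, the same span of log2 units in each panel) in wild type (blue) and Arid3b-null (orange), 3 arrays each, with the mean and SD in black. The groups are far apart for Bhlhe40 and Rora, close together for Per1, Per2 and Per3, and overlap for Clock.

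Bhlhe40, the E-box repressor, had levels of -4.13, -3.82 and -4.11 on wild-type replicates 1, 2 and 3 and of -0.06, 0.07 and -0.28 on the Arid3b-null replicates. Every Arid3b-null array lay far above every wild-type array, and the 2 groups were about equally tight, with an SD of 0.18 in wild type and 0.17 in Arid3b-null (n = 3 each). The change was 3.93 ± 0.14 (SE), or 15.2-fold, the change of rank 7 from the top among all genes tested. In signal units it went from between 35.3 and 48.2 to between 552 and 648. Arrays of the same replicate number share a slide, and within the slides the change was 4.06, 3.89 and 3.84.

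Bhlhe41, its close relative and also a repressor, had levels of -5.84, -5.46 and -6.75 in wild type and -2.99, -2.90 and -3.80 in Arid3b-null. The groups did not overlap, and replicate 3 was the lowest array of both. The change was 2.78 ± 0.38 (SE), or 6.88-fold, and the probe was well above background on 2 of the 3 wild-type arrays and on all Arid3b-null arrays. A second Bhlhe41 probe was well above background on none of the wild-type arrays, with measured means of -8.01 in wild type and -3.77 in Arid3b-null. For it only a bound can be given, at least 5.81-fold higher in Arid3b-null, taken against the lowest signal that counted as well above background on each wild-type array.

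Rora encodes the nuclear receptor that activates Arntl. Its levels were -4.59, -4.11 and -4.79 in wild type and -1.02, -0.81 and -1.19 in Arid3b-null. The groups were separated by several times their own spread, and in both groups replicate 2 was the highest array and replicate 3 the lowest. The change was 3.49 ± 0.20 (SE), or 11.2-fold, at rank 15 from the top, and the slides gave 3.58, 3.30 and 3.60. Rora lies on chromosome 9, which also carries Arid3b.

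Nr1d1 and Nr1d2 encode the REV-ERB receptors, which compete with ROR proteins for the same elements. Nr1d1 had levels of -5.26, -5.54 and -5.58 in wild type and -4.17, -4.05 and -3.60 in Arid3b-null. The groups did not overlap, and the change was 1.52 ± 0.18 (SE), or 2.86-fold. It varied between slides more than that of Rora, at 1.09, 1.49 and 1.98. Nr1d1 shares its end with Thra on the opposite strand, and Thra itself changed by 0.48 ± 0.25 (SE) and did not pass the test (adjusted p = 0.191).

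Nr1d2 had levels of -3.70, -4.04 and -4.06 in wild type and -2.83, -2.88 and -3.04 in Arid3b-null. Again every Arid3b-null array was the higher, by 1.02 ± 0.14 (SE) or 2.02-fold, and the slides gave 0.87, 1.16 and 1.02. The change of Nr1d1 exceeded that of Nr1d2 by 0.50 ± 0.40 log2 units (SD over 3 slides), a difference close to its own spread.

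The Per genes encode the repressors that bind CLOCK and BMAL1 together with the cryptochromes. Per1 had levels of 1.16, 1.49 and 1.33 in wild type and 1.92, 2.12 and 1.76 in Arid3b-null. The highest wild-type array was below the lowest Arid3b-null array, and the change was 0.60 ± 0.14 (SE), or 1.52-fold. Its call was lost in 4 of the 6 fits that left out 1 array, and kept without wild-type replicate 2 and without replicate 3 of Arid3b-null.

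Per2 had levels of -4.87, -5.17 and -4.67 in wild type and -4.43, -4.17 and -4.57 in Arid3b-null. The groups came close to each other without overlapping. The change was 0.51 ± 0.17 (SE), or 1.43-fold, and Per2 is one of the 2 genes not called. The slides gave 0.43, 1.004 and 0.10, so most of it came from slides 1 and 2.

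Per3 had levels of -5.67, -5.06 and -5.03 in wild type and -4.50, -4.49 and -4.64 in Arid3b-null, a change of 0.71 ± 0.19 (SE) or 1.64-fold. Wild-type replicate 1 was the array farthest from its group, and the slides gave 1.17, 0.57 and 0.39. Per3 was called in only 1 of the 6 fits that left out 1 array, that without wild-type replicate 3, and was not called with normexp on the median background (1.14-fold). Differences between the 3 Per genes were smaller than their spread over slides: Per1 minus Per2 was 0.09 ± 0.40, Per1 minus Per3 -0.11 ± 0.27 and Per2 minus Per3 -0.20 ± 0.59 (SD, n = 3).

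Dbp, the D-box activator and a standard readout of clock output, had levels of 1.06, 1.10 and 0.78 in wild type and 2.96, 3.19 and 2.81 in Arid3b-null. No array of one group came near the other. The change was 2.01 ± 0.15 (SE), or 4.02-fold, with 1.90, 2.09 and 2.03 within the slides. The second Dbp probe gave 1.83 ± 0.18 (SE), or 3.55-fold. In signal units the brighter probe went from between 1051 and 1756 to between 4686 and 5623.

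Clock, the activator at the head of the loop, had levels of -2.38, -2.22 and -2.15 in wild type and -2.47, -2.30 and -2.87 in Arid3b-null. It is the one gene of the 10 whose groups overlapped, and it was not called. Its change was -0.30 ± 0.17 (SE), 1.23-fold lower, and -0.10, -0.08 and -0.72 within the slides, so most of it came from Arid3b-null replicate 3.

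**Figure D2:**
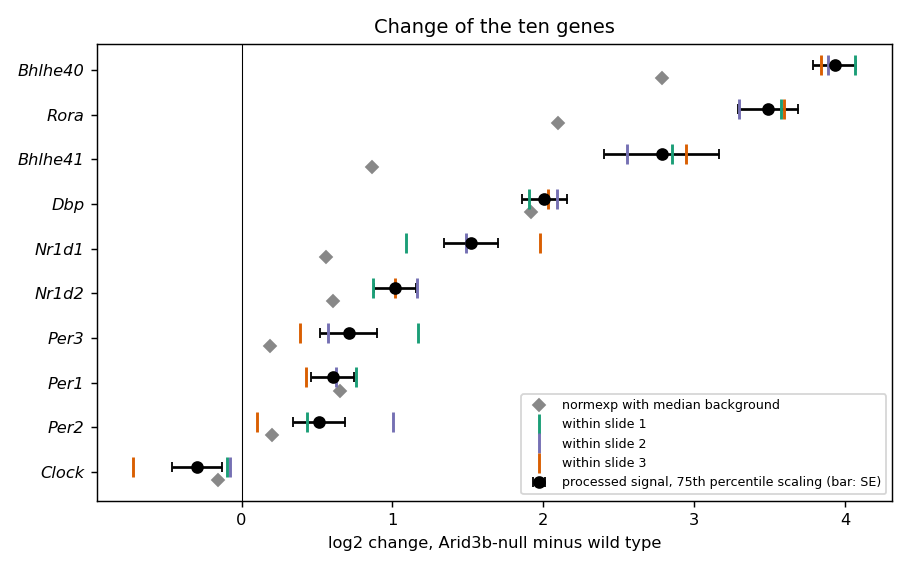
Change of each of the 10 genes (horizontal axis, log2, Arid3b-null minus wild type): black points with SE bars from the 6 arrays, coloured ticks within each slide, and grey diamonds after another background correction (normexp with each array's median background). All 3 ticks of each gene lie on the same side of 0, and the diamonds of Bhlhe40, Rora, Bhlhe41 and Nr1d1 lie well below their points.

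For dim probes the size of a change depended on how background was removed. With normexp, a correction that keeps all values positive, and an offset of 50 on the median background, Bhlhe40 stood 6.88-fold higher, Rora 4.28-fold, Bhlhe41 1.82-fold and Nr1d1 1.47-fold. Dbp, the bright output gene, moved little, to 3.78-fold. Averaging both Bhlhe41 probes raised its value to 11.4-fold. The local background of each spot could not serve, as 12 spots on wild-type replicates 2 and 3 lay far below theirs and shifted those arrays; with it, Bhlhe41, Nr1d1, Nr1d2, Per2 and Per3 turned to a lower mean in Arid3b-null.

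The rest of the clock did not move as one block. Of 50 further clock genes in 7 lists, all had a probe and 45 could be tested. In the Arid3b-null trunks 8 rose and 4 fell, or 26.7% of those tested against 26.5% of all genes, and their median change was 0.02. Without Arid3b-null replicate 3 the number that rose was 5, as the calls of Ciart, Hlf and Lonrf3 were lost. The others were too dim to test. These lists were drawn up with earlier results of these arrays known.

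Arntl, which encodes BMAL1, the partner of CLOCK and the gene on which ROR and REV-ERB act, fell. Its levels were -2.39, -2.47 and -2.72 in wild type and -3.41, -3.35 and -3.56 in Arid3b-null, a change of -0.92 ± 0.13 (SE), 1.89-fold lower (adjusted p = 0.00431). The groups did not overlap. It was the only activator besides Clock that could be tested.

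Among cryptochromes and other repressors 1 of 5 tested genes passed, against 26.5% of all genes. Ciart, a repressor of the CLOCK and BMAL1 pair, rose by 1.92 ± 0.39 (SE), or 3.78-fold (adjusted p = 0.0146), with levels of -4.44, -5.01 and -3.72 in wild type and -2.15, -3.10 and -2.17 in Arid3b-null. The groups were apart, but wide, and without Arid3b-null replicate 3 the adjusted p was 0.0546. The cryptochromes did not pass. Cry1 changed by -0.29 ± 0.69 (adjusted p = 0.786) and Cry2 by 0.39 ± 0.18 (adjusted p = 0.167), and the Cry1 probe, dim and scattered over more than a log2 unit within each group, could not resolve a change the size of that in Per1. Rorb, a relative of Rora, had a change of 0.02 ± 0.19 (adjusted p = 0.956).

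All 3 genes of the D-box list were called higher, where 13.6% of all genes tested were, and Dbp also stood higher. The list was drawn up with earlier results known, so the count is a description. Tef, a D-box activator, went from 1.12, 1.14 and 1.12 to 2.13, 2.71 and 2.30, a change of 1.25 ± 0.16 or 2.38-fold (adjusted p = 0.00322). Hlf, the other activator, rose by 0.67 ± 0.17 or 1.59-fold (adjusted p = 0.0329), a call that was lost in 5 of the 6 fits that left out 1 array. Nfil3, the repressor at the same sites, went from 1.02, 1.23 and 1.07 to 1.76, 1.97 and 1.81, a change of 0.74 ± 0.11 or 1.68-fold (adjusted p = 0.00591). Activators and repressor of the D-box thus changed in the same direction.

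Enzymes that set the stability of clock proteins mostly did not pass: of 11 tested, 2 fell, where 12.9% of all genes did. Btrc, which encodes the ligase subunit that recognises phosphorylated PER, fell from -1.38, -1.39 and -1.31 to -2.39, -2.44 and -2.30, a change of -1.02 ± 0.10 or 2.02-fold (adjusted p = 0.00135). Csnk2b, a casein kinase subunit, fell by 0.52 on the log2 scale (SE 0.13, adjusted p = 0.0275), and this call was lost with the slide as a replicate block (adjusted p = 0.0504) and in 5 of the 6 fits without 1 array. The kinases that phosphorylate PER did not pass, with Csnk1d at -0.26 ± 0.12 and Csnk1e at 0.27 ± 0.13. A second Csnk1d probe moved the other way, at 0.80.

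Of 13 tested cofactors 1 passed, against 26.5% of all genes. It was Sfpq, a splicing factor that binds PER complexes, at -0.75 ± 0.13 or 1.68-fold lower (adjusted p = 0.00812). Among 11 genes that cycle in many tissues 4 rose, where 13.6% of all genes tested did. Nampt, the rate-limiting enzyme of NAD salvage, rose from 0.59, 0.61 and 0.54 to 1.81, 1.80 and 1.58 (1.15 ± 0.11, 2.22-fold, adjusted p = 0.00131). Klf9, a Krüppel-like factor also induced by glucocorticoids, rose by 1.11 ± 0.11 or 2.16-fold (adjusted p = 0.00155).

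Leo1, a subunit of the PAF elongation complex, rose by 1.55 ± 0.26 or 2.93-fold (adjusted p = 0.00792), and Lonrf3 by 0.98 ± 0.22 or 1.97-fold (adjusted p = 0.0194). The call of Lonrf3 was lost in 3 of the 6 fits that left out 1 array. The other 7 of this list did not pass, among them Tsc22d3 at -0.07 ± 0.15 and Tspan4 at 0.19 ± 0.14. Usp2, a deubiquitinase that cycles in most adult tissues, was at -0.01 ± 0.13.

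**Figure D3:**
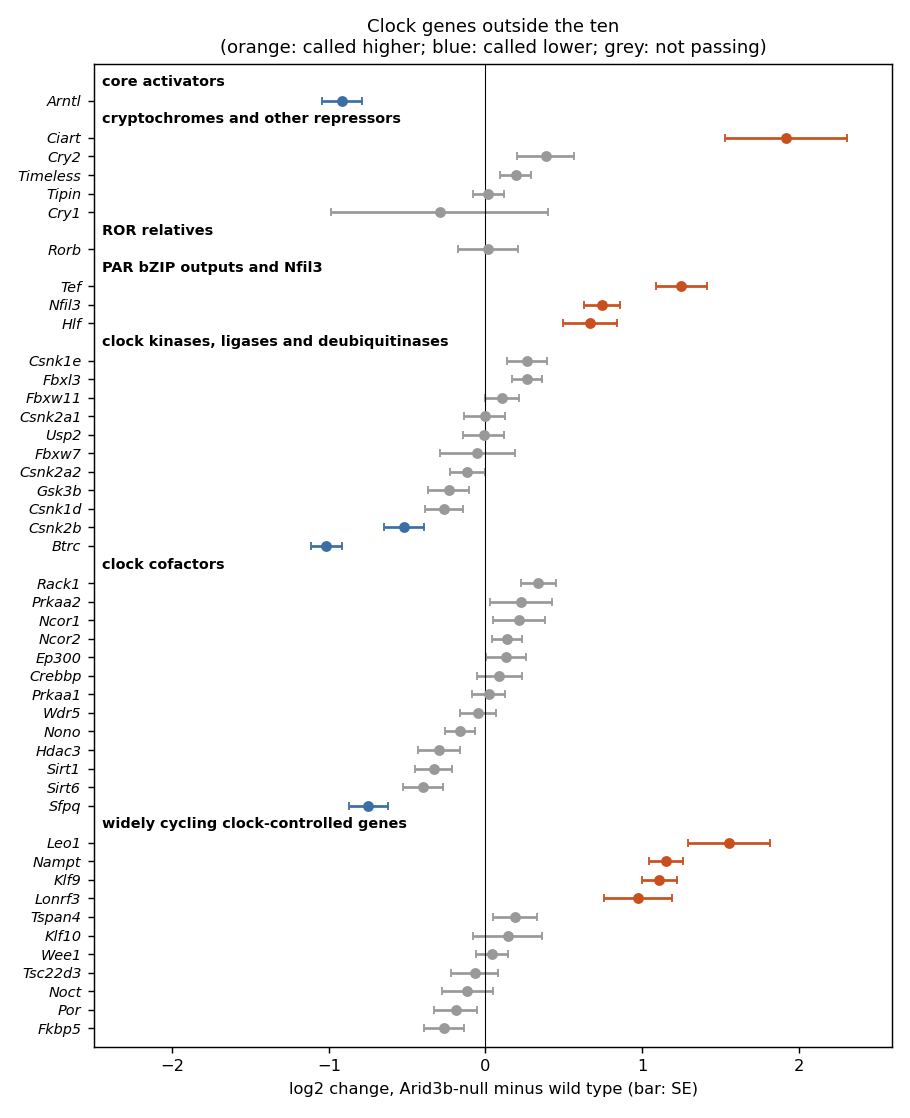
Change of the 45 tested clock genes outside the 10 (horizontal axis, log2, Arid3b-null minus wild type, bars SE), grouped by role, with genes called higher in orange, lower in blue and not passing in grey. Most kinases and cofactors sit near 0, the 3 D-box genes are all orange, and Arntl is blue.

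The relatives of Bhlhe40 that passed all fell. Bhlhe40 and Bhlhe41 belong to the bHLH-Orange family with the Hes and Hey repressors, of which 9 of 10 were tested. In the limma fit 0 rose (0 also at an unadjusted p under 0.05) and 4 fell, where 13.6% of all genes rose and 12.9% fell. Heyl, a Notch target, fell from -1.11, -1.33 and -1.20 to -3.76, -4.05 and -3.93 (-2.70 ± 0.12, 6.51-fold, adjusted p = 0.000197).

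Hes5, the Notch effector of neural progenitors, fell by 1.27 on the log2 scale (SE 0.13, adjusted p = 0.00157). Hes6, which promotes neurogenesis, fell by 0.83 (SE 0.12, adjusted p = 0.00461) and Hes2 by 1.72 (SE 0.21, adjusted p = 0.00296). The Hes2 probe was well above background on all wild-type arrays but on only 2 of the 3 Arid3b-null arrays. It was thus tested only through the group where it was high, and the size of its fall is uncertain. Hes1, Hey1 and Hes7 had changes of 0.07 ± 0.40, 0.05 ± 0.10 and 0.01 ± 0.19 and did not pass. Rora and the Nr1d genes belong to the nuclear receptors, and of 31 other receptors tested 11 rose and 5 fell, 51.6% in all. Of all genes tested 26.5% were called, 13.6% higher and 12.9% lower, and the receptor list was drawn up with earlier results known. The number that fell was 3 or 4 in the fits that left out 1 array, and with all probes kept, dim ones included, the numbers were 7 and 3.

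Nr3c1, the glucocorticoid receptor, rose by 1.22 ± 0.17 or 2.32-fold (adjusted p = 0.00448). Nr4a1, an immediate early receptor, rose by 1.07 ± 0.12 (adjusted p = 0.00217), Rarg, a retinoic acid receptor, by 0.90 ± 0.13 (adjusted p = 0.00503) and Nr2f2, also called COUP-TFII, by 0.81 ± 0.11 (adjusted p = 0.00405). Hnf4a, a receptor of liver and visceral endoderm, fell by 1.24 (SE 0.15, adjusted p = 0.00284). Nr0b1, counted among the receptors that fell, was well above background on all wild-type and none of the Arid3b-null arrays. It was therefore tested only through the group where it was high. For it only a bound can be given, at least 1.86-fold lower (measured means -5.48 and -7.70). Nothing is read from its call in the limma fit (adjusted p = 0.000391), which was lost with normexp on the median background (adjusted p = 0.275).

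Bhlhe40 and Rora were each set against 14190 genes by the Euclidean distance between their levels on the 6 arrays, after the wild-type mean of each gene was subtracted. The distance is in log2 units, and 0 would be the same profile. The nearest genes to Bhlhe40 were Ndrg1 (0.21), a stress- and hypoxia-induced gene, Ier3 (0.23), an immediate early gene, Nrn1 (0.54), which encodes neuritin, Ndufa4l2 (0.56), a mitochondrial protein, and Adm2 (0.68), a peptide hormone gene. Adm2 was well above background on 1 of the 3 wild-type arrays.

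The nearest genes to Rora were Pfkp (0.24), a phosphofructokinase, Ddit4 (0.26), an inhibitor of mTOR signalling, Car9 (0.50), a carbonic anhydrase, Ier3 (0.69) and Adm (0.70), which encodes adrenomedullin. Rora itself was at rank 7 among the genes nearest to Bhlhe40, at 0.81. The changes of these genes lay between 3.12 for Adm and 4.17 for Ndufa4l2. With 3 arrays a group, a profile is mostly the size of the change, so the list names genes that differ by a like amount.

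**Figure D4:**
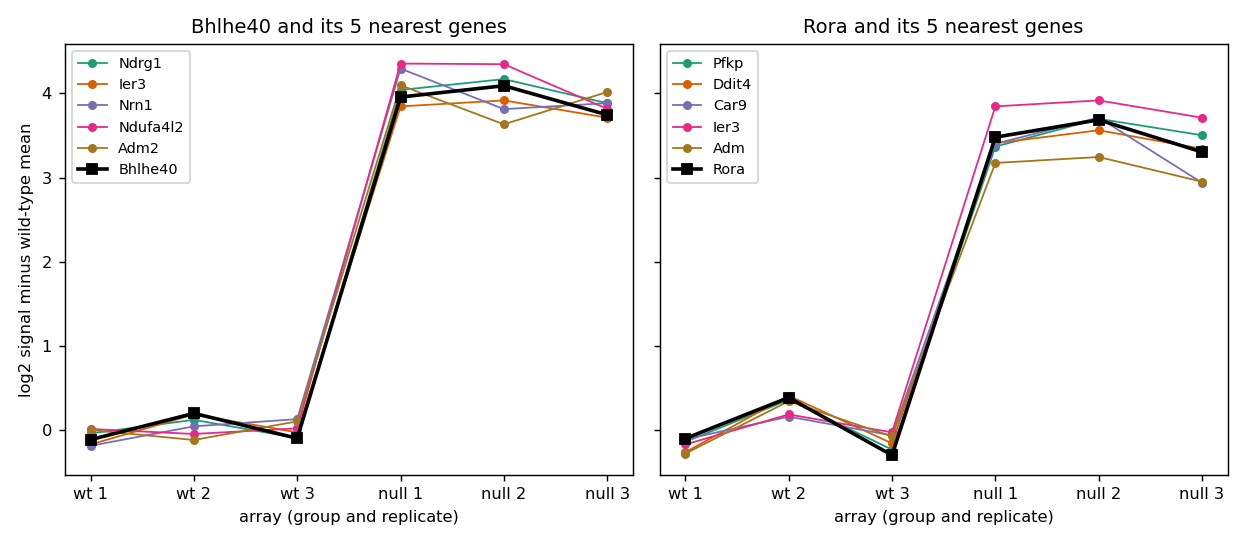
Profiles of Bhlhe40 (left) and Rora (right) in black with the 5 nearest genes of each in colour over the 6 arrays (vertical axis, log2 signal minus the wild-type mean of the gene). Pfkp and Ddit4 follow Rora on the wild-type arrays too, where replicate 2 is the highest. The wild-type arrays entered the distance that chose these genes, so this likeness was part of the choice.

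Hypoxia-induced genes also rose. All 9 tested of 10 markers, a list drawn up with earlier results known, were called higher, where 13.6% of all genes were. Their median change was 2.40, and nothing is read from the count. Among them were Ndrg1 (4.03 ± 0.12, adjusted p = 5.83e-05), Car9 (3.35 ± 0.21, adjusted p = 0.000391), Ankrd37 (2.44 ± 0.16, adjusted p = 0.000468) and the mitophagy gene Bnip3 (2.40 ± 0.19, adjusted p = 0.000761). The growth factor gene Vegfa (2.15 ± 0.12, adjusted p = 0.000375) and the kinase gene Pdk1 (2.02 ± 0.14, adjusted p = 0.000544) also rose. Their summed linear level was 32.7, 42.3 and 33.0 times the array's 75th percentile in wild type and 140, 151 and 117 in Arid3b-null. It was highest in replicate 2 of both groups, arrays that share a slide. The same held for Bhlhe40, Bhlhe41, Rora, Per1 and Dbp, and not for Nr1d1, Nr1d2, Per2, Per3 and Clock. With 3 arrays a group, such an order cannot be told apart from an effect of the slide, and nothing is read from it. The part of the hypoxia-induced genes in the values of the clock genes was not tested.

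Markers of several cell types also differed in level, where 13.6% of all genes tested were called higher and 12.9% lower. Early neuron markers summed to between 5.85 and 7.39 in wild type and between 1.16 and 1.38 in Arid3b-null, with 4 of 4 lower (Elavl3, Tubb3, Nefl and Isl1). Neural tube progenitor markers summed to 18.5 to 20.01 and 9.92 to 10.9, with 2 of 4 lower. That sum was mostly Nes, which changed by -0.99, as did Olig2 by -0.73. Sox2 (-0.02) and Pax6 (-0.09) did not pass. Hepatic and yolk sac markers summed to 7.32 to 8.87 and 1.95 to 4.86, with 3 of 4 lower, and primitive erythroid markers to 298 to 382 and 240 to 274, with 2 of 4 lower. The erythroid sum was mostly Hbb-bh1 (-0.36) and Hba-x (-0.30), which did not pass, and the lower genes were Gata1 (-0.82) and Klf1 (-1.45). Surface epithelium markers were the higher in Arid3b-null, at 20.4 to 31.7 and 41.7 to 50.2, with 2 of 4 called.

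The labelled tissue was present in both groups. Somite markers summed to 17.2 to 18.6 in wild type and 15.4 to 18.6 in Arid3b-null, with 1 of 5 lower (Pax1), and forelimb markers to 2.16 to 2.57 and 2.70 to 3.18, with 1 of 4 higher (Fgf10). Endothelial markers (5.03 to 8.56 and 3.95 to 5.70) and cardiac markers (4.85 to 12.2 and 1.999 to 11.3) overlapped between groups. Cardiac levels differed strongly between pools of a group. On Arid3b-null replicates 1, 2 and 3 Myh6 was at -2.03, 2.86 and 2.44 and Myl7 at -1.77, 0.69 and 0.74. Wild-type replicate 1 was the lowest of its group for all 4 cardiac markers. None of the defining markers was too dim to test, and the part of cell composition in the clock gene values was not tested. Arid3b itself was lower on each of its 3 probes, at 31.0%, 26.9% and 10.6% of wild type with no overlap of arrays. The probe at 31.0% was well above background on all Arid3b-null arrays. The other 2 were so on only 2 of the 3, so their percentages are uncertain. The upper quartile of signal was 611 to 844 units per array.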

How the data were processed

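Amplified total RNA was hybridised to single-colour (Cy3) Agilent arrays, per the labels' protocols. Agilent Feature Extraction 10.7.3.1 wrote the deposited intensity values, per the file headers, which name build mm9 and give a background-subtracted processed signal. The deposited value table holds log2 values of 24181 probes, matched between arrays at the median (6.77 on each array) and upper quartile by a method not given in the sources used here, and served as an alternative. Its columns correlated with the log2 processed signal of their array at 0.9987 or more.

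From the log2 processed signal of each array its 75th percentile over non-control spots was subtracted. Outlier-marked spots were left out and spots of a probe averaged. Accessions gave 26424 of 39429 probes (67%) a RefSeq symbol (GRCm38.p6, used for names, chromosomes and promoter windows). A probe was tested if well above background on all 3 arrays of a group, and a gene took its brightest tested probe, which left 19792 genes. Groups were compared with limma 3.58.1 (lmFit and eBayes, R 4.3.3), two-sided, at a Benjamini-Hochberg adjusted p of 0.05 over all genes, after the fit was tested on simulated data. Arrays of one replicate number share a slide, from the file headers, and their deviations from the group means correlated at 0.163, 0.387 and 0.278, so the numbers pair the samples and a paired fit with a replicate block was an alternative. Other alternatives changed the background correction, scaling, filter, choice of probe, source of values and arrays.

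The 10 genes and all lists were chosen with earlier results of these data known. Named are the 10 genes, Arid3b, for each list up to 6 called genes in order of p (or 2 where none passed), and the 5 genes nearest to Bhlhe40 and to Rora. Other genes named in passing, such as Thra, Cry1, Cry2, Csnk1d, Csnk1e, Usp2, Tsc22d3, Tspan4, Hes1, Hey1 and Hes7, and the cell type markers, were picked after their values were seen or for their known role. The number of arrays limits the precision, and whether pools came from separate litters is not stated.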

Additional observations from a re-analysis of the deposited data

How the results depend on the processing

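Median scaling, quantile normalization, the deposited value table, keeping outlier-marked spots, averaging the probes of a gene and the replicate block kept the direction of each of the 10 genes, and 8 or 9 of them were called higher (9 with quantile normalization and the deposited table, where Per2 passed). With the replicate block 2428 genes were called higher and 2348 lower, and of the named genes the block changed only the call of Csnk2b. Without a filter on dim probes the counts were 1288 higher and 998 lower, with Per1, Per3, Ciart (adjusted p = 0.0543), Hlf, Lonrf3 and Csnk2b no longer called; more dim probes are tested there. Leaving out 1 array gave 1661 to 2047 genes higher and 1204 to 2037 lower, with the lowest counts, 1661 and 1204, when wild type replicate 1 was left out, 1769 and 1661 for Arid3b-null replicate 2, 1632 lower for wild type replicate 2 and 1541 lower for Arid3b-null replicate 3. It gave 6 to 7 of the 10 genes called higher (Per3 lost in 5 of these 6 fits and Per1 in 4), and 5 to 8 of the clock genes outside the 10 higher, with 5 when Arid3b-null replicate 3 was left out, and 3 to 4 lower; fewer samples enter these fits. Rorb, never called, ranged from -0.13 to 0.16, with -0.13 when wild type replicate 1 was left out and -0.11 when Arid3b-null replicate 2 was.

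Normexp with the local background called 2 genes higher and 0 lower in limma (1016 and 885 at an unadjusted p under 0.05). It called 0 of the 10 genes (3 higher and 0 lower unadjusted) and 0 of the other clock genes in each direction (5 and 2 unadjusted). It gave changes of -0.20 for Bhlhe41, -0.44 for Nr1d1, -0.21 for Nr1d2, -0.69 for Per2, -0.75 for Per3, -0.19 for Hlf, -0.070 for Lonrf3 and -0.90 for Rorb, while the median of all genes moved to -0.22. The 12 spots more than 20 units below their local background lie on wild type replicates 2 and 3, whose median signal after normexp was 145.9 and 792 against 104.8 to 125 on the other arrays. With those spots at the median background, an alternative chosen after seeing the data, 2300 genes were called higher and 2161 lower, and normexp on the median background gave 2349 and 2183.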
